A study of Rattus norvegicus with 56 samples.

Results

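Ca2+/calmodulin-dependent protein kinase II (CaM kinase II) and its small inhibitor proteins were followed in the dorsal striatum of 56 rats. The 6 genes were the kinase subunit genes Camk2a, Camk2b, Camk2d and Camk2g and the inhibitor genes Camk2n1 and Camk2n2. All array probe sets annotated with one of these symbols alone were taken, which gave 14 of 31042 probe sets, or 6 of the 14217 gene symbols on the array. The genes were chosen by measured values of these same arrays: a Camk2n1 probe set stepped between sample numbers 37 and 38, while another probe set of the same gene did not. That step, and any contrast that runs across it without a correction, is therefore given below as a description, and no call is read from it.

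The study crossed a lesion, a drug treatment and a conditioning drug, with 1 Affymetrix Rat230_2 array per rat and 7 male Sprague Dawley (Crl:OFA) rats in each of 8 groups. Lesioned rats had lost nigral neurons on both sides after a viral vector (AAV) overexpressed alpha-synuclein there. Sham rats received that AAV carrying GFP, so every rat had been injected with virus. The promoter of the vector and the age of the rats are not given in the sources used here. From 5 weeks after surgery the rats received a daily subcutaneous injection for 3 weeks, either L-dopa methyl ester at 50 mg/kg with benserazide, which blocks the conversion of L-dopa outside the brain, or saline. They were then conditioned to a chamber in 40 min sessions with the D2/D3 dopamine agonist pramipexole at 2 mg/kg, or with saline only. The 8 groups were thus lesioned or sham, treated with L-dopa or saline, and conditioned with pramipexole or saline. Tissue was taken 24 or 48 h after the last dose, so acute responses to a dose were not measured.

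CaM kinase II is a ring-shaped enzyme built of alpha, beta, gamma and delta subunits, which calcium-bound calmodulin switches on and which then keeps itself active by phosphorylating its own subunits. The alpha and beta subunits make up most of the neuronal enzyme and act at the postsynaptic density, and the 2 inhibitor proteins bind the active kinase and block it. In the striatum the kinase acts downstream of calcium entry through NMDA receptors in spiny projection neurons, and its phosphorylation has been linked to loss of dopamine and to L-dopa treatment. The arrays measured messenger RNA, not the activity or phosphorylation of the enzyme.

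All 9 measured markers of striatal spiny neurons were bright, with mean log2 signals of 8.32 to 12.20, brighter than 85.1% to 99.8% of the probe sets. Of the cerebral cortex projection neuron markers, 10 had a probe set and 8 passed the filter, and their means ran from 1.45 for Tbr1 to 10.60 for Nptx1. The array medians lay between 5.62 and 5.82 on the log2 scale. Rat 2 (lesioned, L-dopa, pramipexole) stood apart with a microglial marker score of 2.73, against 0.64 or less in the other 55 rats. Rat 7 of the same group and rat 27 (lesioned, no drug) had choroid plexus marker scores of 4.11 and 2.41, against 0.84 or less in the other 54. The labels give no batch, and the boundary between sample numbers 37 and 38 was placed from the values. Numbers 1 to 37 hold all 28 lesioned rats, the 7 sham rats given both drugs and 2 sham rats given L-dopa and saline. Numbers 38 to 56 hold the other 5 rats of that last group and both sham groups without L-dopa. All lesioned rats thus lie on the first side, and over all rats lesion and array set can be told apart only through the sham rats, of which 1 group lies on both sides.

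Each kinase subunit gene and Camk2n1 had at least 1 probe set that passed the filter on low signals, and Camk2n2 had none. Of the 14 probe sets, 10 passed that filter (a mean of more than 4.99 log2 units, which cuts at the 40th percentile). Camk2a had 4 probe sets, of which 3 passed, with means of 10.67 (1388187_at), 8.76 (1381637_at) and 8.04 (1389824_at). Both Camk2b probe sets passed, with means of 11.20 (1375575_at) and 10.17 (1398251_a_at). For Camk2d, 2 of 3 passed, 1368834_at at 9.36 and 1371263_a_at at 5.06, the latter just above the filter. Camk2g had 1 of 2, 1369993_at at 7.58, and both Camk2n1 probe sets passed, 1370853_at at 10.90 and 1389876_at at 7.72. The 4 that did not pass were Camk2a 1368935_at at 4.70, Camk2d 1368833_at at 4.53, Camk2g 1381936_at at 4.56 and the sole Camk2n2 probe set, 1387649_at, at 1.21. These signals depend on the probes as well as on the transcript, so they are not ranked between probe sets. Camk2n2 was dimmer than all but 3.7% of the probe sets and ranged from -0.77 to 3.49 over the rats, so no level of that inhibitor can be read from it. Of the 14 probe sets, 8 were designed against expressed sequence tags, 5 against RefSeq mRNAs and 1 against another mRNA record, and the 4 dim ones include 3 of the 5 made from RefSeq mRNAs.

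The inhibitor gene Camk2n1 behaved differently on its 2 probe sets. On 1389876_at the rats numbered 1 to 37 had log2 signals from 7.68 to 8.49, with a median of 8.03. Rats 38 to 56 had 6.86 to 7.37, with a median of 7.13. The ranges did not overlap and left a gap of 0.30 between them. The means were 8.02 ± 0.17 (SD, n = 37) and 7.12 ± 0.15 (n = 19), a difference of 0.90 or 1.86-fold. On 1370853_at the same rats had 10.62 to 11.31 and 10.64 to 11.18, with medians of 10.88 and 10.88, and the ranges overlapped almost wholly. The means there were 10.92 ± 0.16 and 10.87 ± 0.14, a difference of 0.05.

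**Figure D1:**
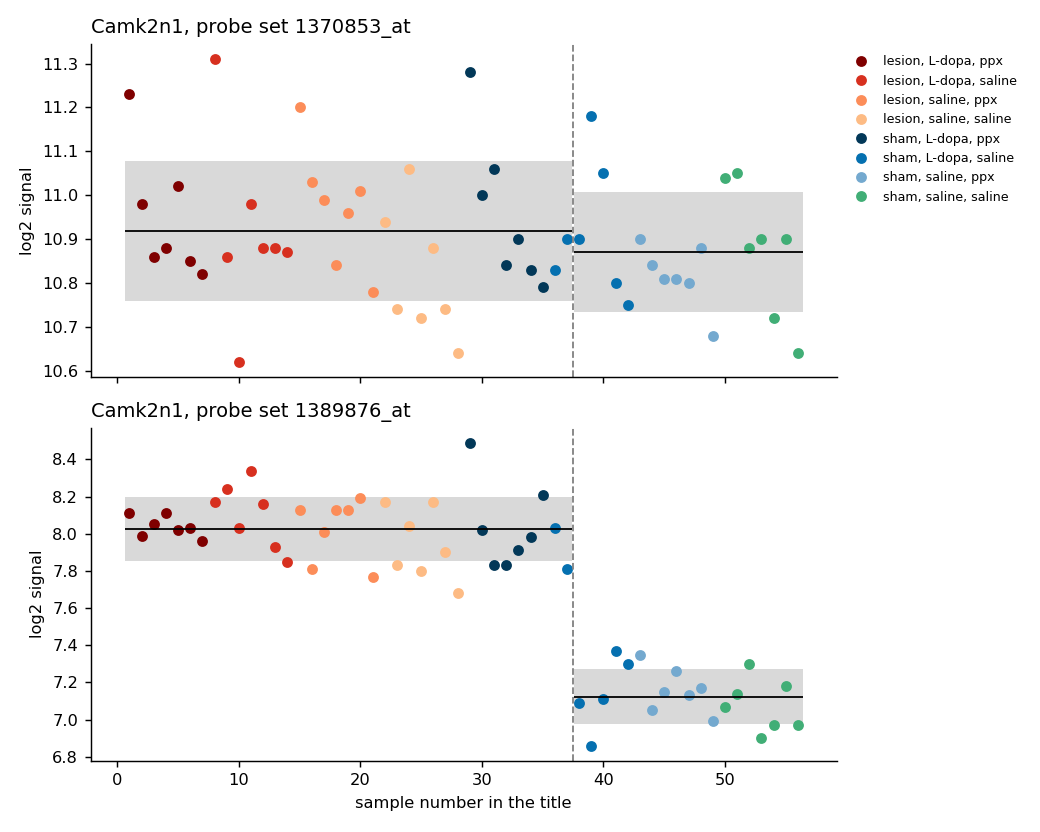
Log2 signal of the 2 Camk2n1 probe sets in each rat, in order of the sample number in the title and coloured by group; black lines are the means of samples 1 to 37 and 38 to 56 and grey bands their SD. The probe set 1389876_at drops by 0.90 after sample 37, also inside the sham group with L-dopa and saline, whereas 1370853_at differs by 0.05.

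The step lay inside one treatment group. Among sham rats given L-dopa and conditioned with saline, Camk2n1 1389876_at was 8.03 and 7.81 in rats 36 and 37, and 7.09, 6.86, 7.11, 7.37 and 7.30 in rats 38 to 42. These rats had the same surgery, treatment and conditioning, and their values did not overlap across the boundary, with a difference of 0.77. In these 2 and 5 rats the dim Camk2a 1368935_at did not overlap either, at -0.40, and the dim Camk2n2 differed by 0.88 with overlap. The share of all probe sets whose ranges do not overlap in so few rats was not counted. Neither case without overlap is therefore read as a result. Among all sham rats, 9 on the first side and 19 on the second, Camk2n1 1389876_at differed by 0.89. Over all rats, the other 13 probe sets overlapped between the array sets and differed by 0.004 to 0.135 in size, the largest being Camk2d 1368834_at. Over the array as a whole, 15 of 31042 probe sets, 0.0483%, had ranges that did not overlap there. The median size of the difference over the 18625 tested probe sets was 0.05, and 0.027% of them had a larger one than Camk2n1 1389876_at. The 2 Camk2n1 probe sets also ran together unevenly from rat to rat. Their correlation was r = 0.49 (rho = 0.36) within numbers 1 to 37 and r = -0.14 (rho = -0.10) within 38 to 56, with permutation p = 0.0025 and 0.027 in the first and 0.58 and 0.68 in the second. Adjusted over 94 correlations, these p became 0.0093 and 0.071, and 0.67 and 0.78, and without the 2 farthest rats r was 0.34 and -0.009.

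**Figure D2:**
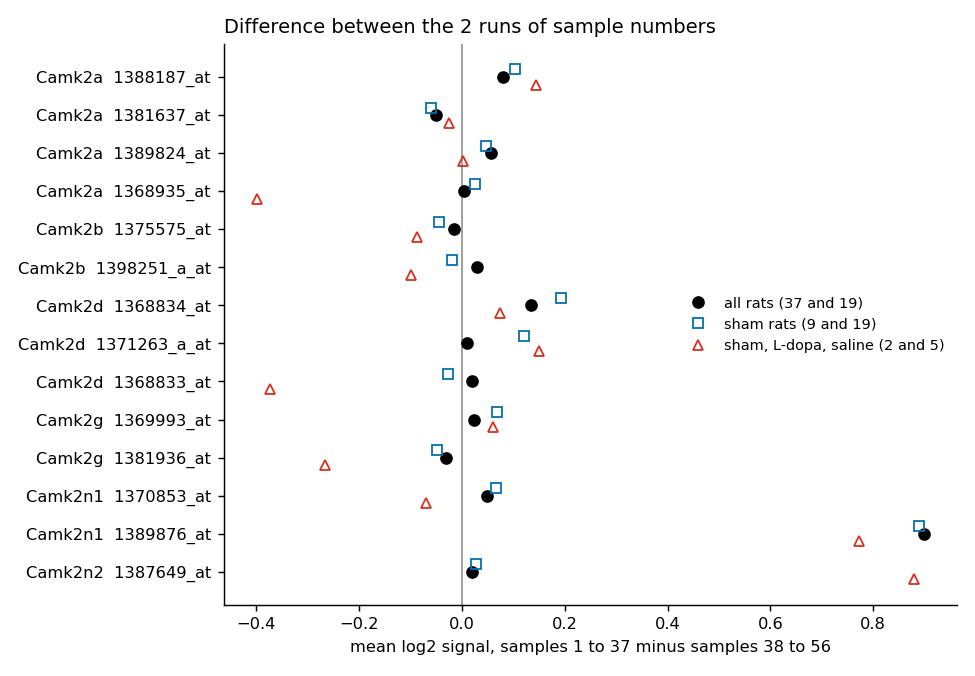
Mean log2 signal of samples 1 to 37 minus that of samples 38 to 56 for the 14 probe sets, over all rats (circles), over sham rats (squares) and within the L-dopa and saline sham group that lies on both sides (triangles). Camk2n1 1389876_at lies at 0.90, 0.89 and 0.77, while the other 13 lie between -0.05 and 0.14 over all rats. The triangles rest on 2 and 5 rats and scatter more for the dim probe sets, from -0.40 (Camk2a 1368935_at) to 0.88 (Camk2n2).

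A measure of RNA quality moved with the array sets. This was the difference in log2 signal between the 3′ and 5′ control probe sets of 3 rat genes, which is higher where RNA is more degraded or was copied less far. It was 0.85 ± 0.09 in rats 1 to 37 and 0.97 ± 0.13 in rats 38 to 56. Within the second set, Camk2n1 1389876_at was lower where this signal was higher, with r = -0.68 (permutation p = 0.0014, adjusted p = 0.0066) and rho = -0.60 (permutation p = 0.0073, adjusted p = 0.026). Without the 2 farthest rats r was -0.54. Within the first set r was -0.002 (rho = -0.07; permutation p = 0.99 and 0.66). In rats 38 to 56, 0.07% of the tested probe sets had an r at least as low. The part of RNA quality in the step was not tested.

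Apart from that probe set, the 8 groups differed little in these genes. The group means explained 81.3% of the variance of Camk2n1 1389876_at over the 56 rats, a share that includes the step, and 2.54% to 21.5% for the other 13. The means of 8 groups take up some variance by chance alone, and the shares over all probe sets were not taken. For those 13, even the groups of highest and lowest mean overlapped, and every gap between neighbours in the order of group means was smaller than the SD within groups. Values were compared with limma in 16 comparisons, with the array set as a block. The differences inside a set then come from the means of that set only. Their SE, intervals and p use a spread estimated over all 56 rats. None of the 160 tests of the 10 tested probe sets passed at an adjusted p under 0.05, and the smallest adjusted p was 0.256. The count was 0 as well without rat 2 and without rats 2, 7 and 27. At an unadjusted p under 0.05 there were 8, in 6 of the comparisons, and 5 without those 3 rats. In bulk tissue, fewer cells of a type and less RNA per cell cannot be told apart.

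The members' counts are to be read against how little was called at all. At an adjusted p under 0.05, limma called 0.00537% of all tested probe sets for L-dopa in lesioned rats, 0.0161% for L-dopa in lesioned rats conditioned with saline, 0.0161% for pramipexole in lesioned rats treated with L-dopa, 0.0215% for both drugs against none in lesioned rats and 0.0322% for pramipexole over all rats. In the other 11 comparisons it called 0.0%. At an unadjusted p under 0.05 the share of all tested probe sets was 10.3% for L-dopa in lesioned rats, 6.37% for pramipexole in lesioned rats, 6.79% for the lesion in rats given both drugs and 12.4% for both drugs against none, and 0 of the 10 members reached it in any of these. The shares were 5.04% for L-dopa in lesioned rats conditioned with pramipexole, 7.08% for pramipexole in lesioned rats treated with saline and 6.7% for the lesion by pramipexole interaction, again with 0 of 10 members. Over all rats they were 4.31% for the lesion, 5.07% for pramipexole and 5.43% for L-dopa, with 0 of 10 members in each.

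Camk2a, which encodes the alpha subunit, held 5 of the 8 tests at an unadjusted p under 0.05, of which 3 were for L-dopa in lesioned rats conditioned with saline, where 12.8% of all tested probe sets reached that level. On 1388187_at the 7 rats given L-dopa ranged from 10.38 to 11.24 with a median of 10.90, and the 7 given saline from 10.07 to 10.69 with a median of 10.56. All L-dopa rats but 1 lay above every saline rat, and that rat fell inside the saline range. The means were 10.88 ± 0.27 and 10.50 ± 0.22 (SD, n = 7 each), a difference of 0.38 ± 0.14 (SE; 95% interval 0.09 to 0.67) on the log2 scale, or 1.3-fold, with limma's adjusted p = 0.256 and 6 of 7 rats above the saline mean. On 1381637_at the ranges were 8.58 to 9.02 and 8.41 to 8.82 and the difference 0.22 ± 0.08 (adjusted p = 0.256, 6 of 7 rats). On 1389824_at they were 8.06 to 8.37 and 7.66 to 8.18 and the difference 0.20 ± 0.09 (adjusted p = 0.330, 7 of 7 rats). The groups overlapped on each probe set, and none of the 3 differences passed the test.

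Cortical markers stood higher in the same rats. Their score, the mean of the centred log2 signals of the 8 tested markers, was 0.27 ± 0.38 with L-dopa (range -0.20 to 0.81) and -0.23 ± 0.68 with saline (range -1.13 to 0.81). In that comparison 8 of 8 cortical markers were positive with a median difference of 0.47, and 9 of 9 spiny neuron markers were negative with a median of -0.11; 0 of either list were called. The 2 choroid plexus markers were both negative there, with a median of -1.19, and their score was -0.80 ± 0.34 with L-dopa and 0.39 ± 1.08 with saline, the group of rat 27. Without rats 2, 7 and 27 the Camk2a differences were 0.39, 0.24 and 0.19 (limma's adjusted p = 0.334, 0.309 and 0.449). With the cortical score as a covariate, which was added after the values were seen, the Camk2a differences were 0.27, 0.19 and 0.13 (adjusted p = 0.548, 0.473 and 0.670). With the 3′ minus 5′ signal as a covariate they were 0.38, 0.21 and 0.19, while that signal itself was 0.89 ± 0.10 with L-dopa and 0.81 ± 0.04 with saline. The part of cortical or choroid plexus tissue in the dissection, or of RNA quality, in the Camk2a values was not tested beyond this.

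In lesioned rats conditioned with pramipexole, the same L-dopa comparison gave Camk2a differences of -0.01, -0.08 and -0.01. On 1388187_at these rats ranged from 10.39 to 11.12 with L-dopa and from 10.17 to 11.00 with saline, so the groups overlapped throughout. The difference between the 2 L-dopa effects was -0.39 ± 0.20 on 1388187_at (adjusted p = 0.725), -0.30 ± 0.12 on 1381637_at (unadjusted p = 0.0147, adjusted p = 0.701) and -0.21 ± 0.13 on 1389824_at (adjusted p = 0.754). Of all tested probe sets, 6.98% reached an unadjusted p under 0.05 in this interaction and 1 of 10 members did. In this interaction all 8 cortical markers were negative too, with a median of -0.54. Camk2a 1381637_at was also the 1 member of 10 at that level for pramipexole in lesioned rats treated with L-dopa, at -0.18 ± 0.08 (adjusted p = 0.837), where 5.82% of all tested probe sets reached it. There 8 of 8 cortical markers were negative with a median of -0.29, 9 of 9 spiny neuron markers positive with a median of 0.12, 5 of 5 microglial markers positive with a median of 0.55 and 2 of 2 choroid plexus markers positive with a median of 1.41. The 1 tested blood marker, the haemoglobin gene Hbb, was called at -0.87. Without rats 2, 7 and 27 the Camk2a value was -0.15 ± 0.09 (unadjusted p = 0.111 in limma), and the part of these markers was not tested further. Over both conditioning arms, L-dopa in 14 against 14 lesioned rats gave 0.19 ± 0.10 for 1388187_at (95% interval -0.02 to 0.39, adjusted p = 0.533).

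**Figure D3:**
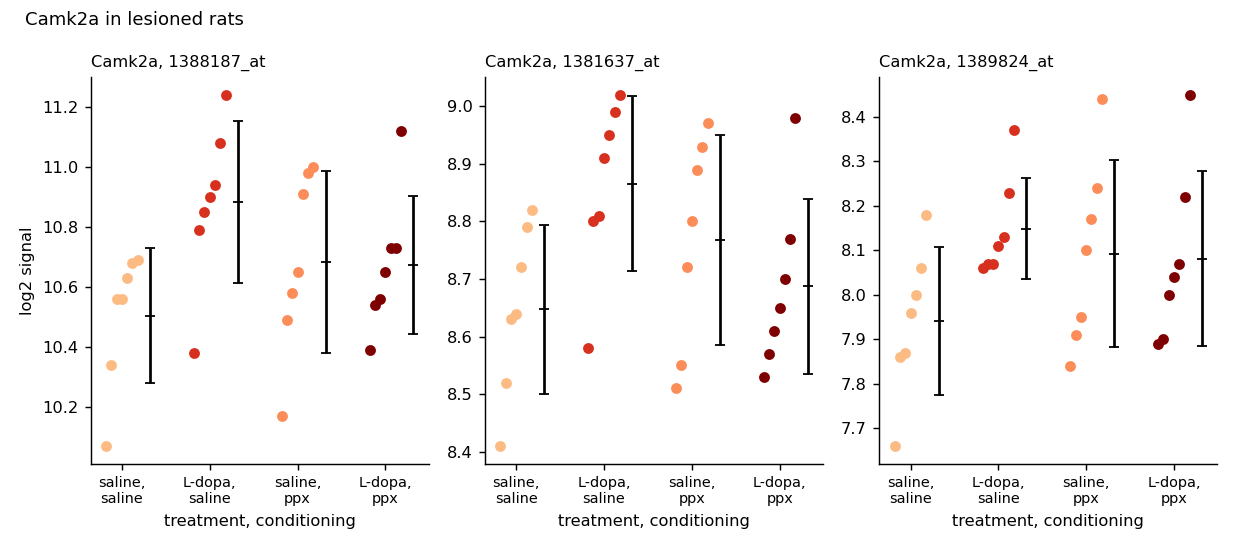
Log2 signal of the 3 tested Camk2a probe sets in lesioned rats, 1 point per rat, with mean and SD (n = 7 per group) beside each group; the first word on the x axis is the treatment and the second the conditioning drug (ppx, pramipexole). L-dopa rats conditioned with saline averaged 0.38, 0.22 and 0.20 above their saline-treated counterparts, and those conditioned with pramipexole -0.01, -0.08 and -0.01, with overlap in every case.

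Camk2b, which encodes the actin-binding beta subunit, varied least of the tested probe sets. On 1375575_at the 8 group means lay between 11.18 ± 0.07 (sham, both drugs) and 11.23 ± 0.06 (lesioned, pramipexole only), and all 56 rats between 11.05 and 11.32. The difference for L-dopa in lesioned rats was 0.002 ± 0.028 (95% interval -0.06 to 0.06). On 1398251_a_at the lesioned rats given both drugs ranged from 10.15 to 10.32 and the matching sham rats from 10.00 to 10.20. The ranges overlapped slightly, and 7 of 7 lesioned rats lay above the sham mean. The difference was 0.11 ± 0.06 (95% interval -0.02 to 0.23) with limma's adjusted p = 0.780, against 0.02 ± 0.04 on 1375575_at.

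Camk2d and Camk2g encode the delta and gamma subunits, which are expressed widely outside the brain as well. On Camk2d 1368834_at the lesion difference in rats given both drugs was -0.17 ± 0.11 (9.32 ± 0.31 against 9.48 ± 0.10, n = 7 each, adjusted p = 0.820). The lesioned rats there ranged from 8.70 to 9.56 and the sham rats from 9.35 to 9.69. The lesioned group was the more scattered and overlapped the sham group. Its lowest value, 8.70, was that of rat 3, whose cortical marker score of -0.89 was also the lowest of the group, and without rat 3 the difference was -0.06 ± 0.10 (adjusted p = 0.981). L-dopa in lesioned rats gave -0.02 ± 0.08 on that probe set and pramipexole 0.001 ± 0.076. For Camk2g 1369993_at the corresponding values were -0.05 ± 0.12 for the lesion, -0.03 ± 0.08 for L-dopa and 0.09 ± 0.08 for pramipexole, with adjusted p of 0.967, 0.937 and 0.892.

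The dim Camk2d probe set 1371263_a_at supplied the other 3 tests at an unadjusted p under 0.05, all involving sham rats without drugs. Those rats had 4.34 to 5.17, a median of 5.01 and a mean of 4.86 ± 0.33 (n = 7), the lowest group mean for this probe set. With L-dopa in sham rats of numbers 38 to 56 the mean was 5.22 ± 0.29 (n = 5), a difference of 0.36 ± 0.15 (adjusted p = 0.639), where 6.64% of all tested probe sets and 1 of 10 members reached that level. With pramipexole in sham rats the values ran from 4.79 to 5.25 and the difference was 0.27 ± 0.13 (adjusted p = 0.787), with 6.32% of all tested probe sets and 1 of 10 members. The lesion by L-dopa interaction was -0.41 ± 0.20 (adjusted p = 0.813), with 6.07% and 1 of 10 members. The brighter Camk2d probe set, 1368834_at, gave 0.004 ± 0.108 for pramipexole in the same sham rats. The low sham group overlapped both drug groups, and the mean of this probe set, 5.06, lies just above the filter at 4.99.

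For the inhibitor Camk2n1, comparisons inside an array set gave small values on both probe sets. In rats given both drugs, lesioned and sham rats had 8.04 ± 0.06 and 8.04 ± 0.24 on 1389876_at and 10.95 ± 0.15 and 10.96 ± 0.17 on 1370853_at. The lesion difference was thus 0.001 ± 0.089 (95% interval -0.18 to 0.18) on the stepping probe set and -0.01 ± 0.08 (-0.17 to 0.15) on the other. L-dopa in lesioned rats gave 0.09 ± 0.06 and 0.04 ± 0.06, and pramipexole 0.01 ± 0.06 and 0.09 ± 0.06, in the same order. For pramipexole in lesioned rats treated with saline, 1370853_at had a difference of 0.16 ± 0.08 (95% interval -0.01 to 0.32, adjusted p = 0.705). In that comparison all 10 members were positive, with a median of 0.13 against 0.009 over all tested probe sets, and 8 of 8 cortical markers were positive too, with a median of 0.28. For pramipexole in sham rats treated with saline the Camk2n1 differences were 0.08 ± 0.09 and -0.06 ± 0.08.

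Across the step the same probe set had unequal group means. The 28 lesioned rats averaged 8.03 ± 0.16 on Camk2n1 1389876_at, and every sham group with rats beyond number 37 averaged lower, from 7.08 ± 0.14 without drugs to 7.37 ± 0.42 with L-dopa and saline. Without the block, the lesion over all drug groups gave 0.62 ± 0.06 on this probe set, and with it 0.09 ± 0.10 (95% interval -0.12 to 0.30, adjusted p = 0.998). L-dopa over all rats gave 0.34 ± 0.06 without the block and 0.09 ± 0.06 with it; of the 28 rats without L-dopa 14 are numbered 38 to 56, and of the 28 with it 5. Pramipexole over all rats gave 0.193 ± 0.056 without the block and 0.055 ± 0.051 with it. The values without the block thus hold the step by which the genes were chosen. The lesion values with the block rest on the 2 and 5 rats of the group on both sides. So, in part, do the L-dopa and pramipexole values over all rats with the block, since they set sham groups of the 2 array sets against each other. On 1370853_at the lesion over all drug groups was 0.07 ± 0.10 with the block.

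**Figure D4:**
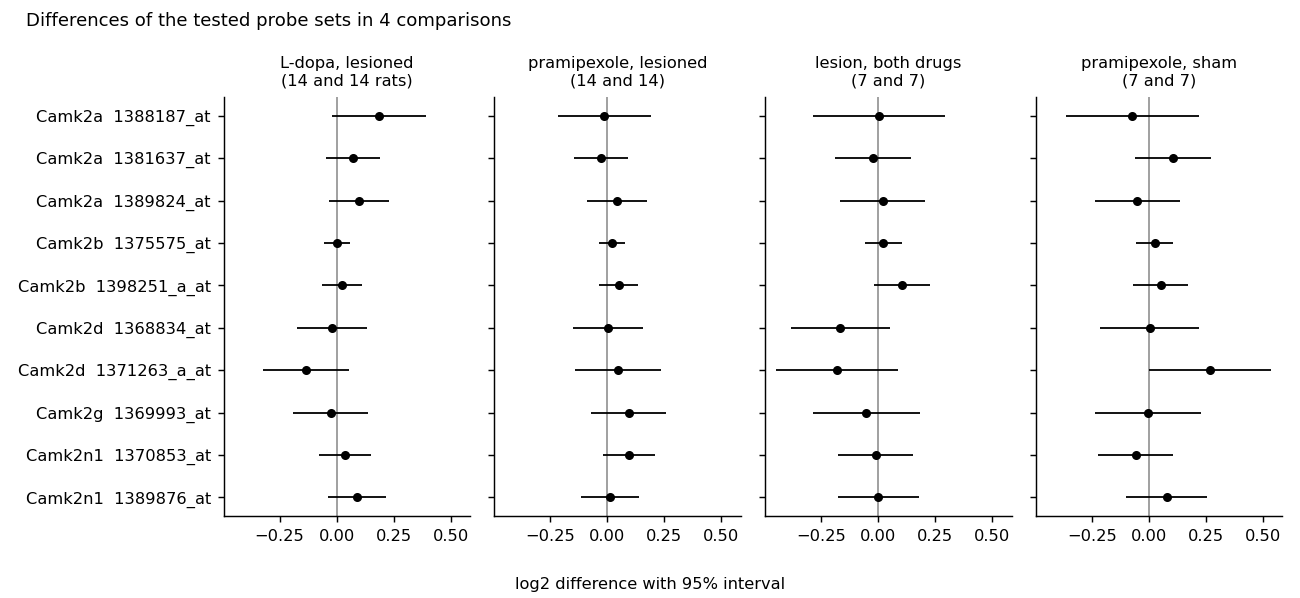
Log2 differences with 95% intervals of the 10 tested probe sets for L-dopa and pramipexole in lesioned rats (14 against 14), the lesion in rats given both drugs and pramipexole in sham rats (7 against 7). No difference passed at an adjusted p under 0.05; Camk2b 1375575_at has the narrowest intervals and Camk2a 1388187_at and Camk2d 1371263_a_at the widest.

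From rat to rat in numbers 1 to 37, Camk2d and Camk2g followed the cortical markers and Camk2b the spiny neuron markers. For Camk2d 1368834_at, r with the cortical score was 0.82 (rho = 0.74) in rats 1 to 37 and 0.67 (rho = 0.58) in rats 38 to 56. The permutation p were 1e-05 for both in the first set, the smallest that 100000 resamples can give, and 0.0014 and 0.011 in the second, or 0.0001, 0.00023, 0.0066 and 0.037 after adjustment over 94 correlations. Without the 2 farthest rats r was 0.80 and 0.54, and with group means removed 0.85 and 0.67. For Camk2g 1369993_at r was 0.80 (rho = 0.74, permutation p = 1e-05 each) in the first set and 0.49 (rho = 0.44, adjusted permutation p = 0.074 and 0.13) in the second. Of all tested probe sets, 1.18% in the first set and 2.28% in the second had an r with the cortical score at least as high as Camk2d, and 1.49% and 6.3% as high as Camk2g.

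With the spiny neuron score, Camk2b 1375575_at had r = 0.63 (rho = 0.55) in rats 1 to 37, with permutation p = 3e-05 and 0.00052 and adjusted p = 0.00028 and 0.0041. In rats 38 to 56 it was 0.48 (rho = 0.55), with adjusted permutation p = 0.081 and 0.049. On Camk2b 1398251_a_at r was 0.60 and 0.305 in the 2 sets, with adjusted permutation p = 0.00081 and 0.31. For 1375575_at, 2.14% and 4.78% of all tested probe sets in the 2 sets had an r at least as high. For 1398251_a_at the shares were 2.65% and 15.02%. Camk2d had r = -0.71 and -0.71 with that score in the 2 sets, and Camk2g -0.76 and -0.57. An r at least as low was found in 1.72% and 0.76% of all tested probe sets for Camk2d. For Camk2g the shares were 1.06% and 2.95%. For Camk2a 1388187_at r with the cortical score was 0.35 (rho = 0.50, adjusted permutation p = 0.074 and 0.013) and 0.64 (rho = 0.50, adjusted permutation p = 0.010 and 0.074), and without the 2 farthest rats of the second set it was 0.31, so that value rests on those rats. Camk2a 1381637_at had r = 0.14 (rho = 0.26, adjusted permutation p = 0.54 and 0.21) in the first set and 0.62 (rho = 0.61, adjusted permutation p = 0.016 and 0.024) in the second, where r was 0.65 without the 2 farthest rats. Camk2a 1389824_at had r = 0.40 (rho = 0.44, adjusted permutation p = 0.039 and 0.025) and 0.52 (rho = 0.40, adjusted permutation p = 0.056 and 0.17), or 0.33 and 0.53 without the 2 farthest rats. For 1388187_at, 12.08% and 2.77% of all tested probe sets in the 2 sets had an r with the cortical score at least as high. The shares were 27.7% and 3.15% for 1381637_at, and 10.19% and 5.33% for 1389824_at. With the cortical score, the dim Camk2d 1371263_a_at had r = 0.50 and 0.30 in the 2 sets (adjusted permutation p = 0.0067 and 0.31). In rats 1 to 37 Camk2n1 1370853_at had r = 0.52 (rho = 0.59, adjusted permutation p = 0.005 and 0.00073). Camk2n1 1389876_at had 0.51 there (rho = 0.49, adjusted permutation p = 0.0067 and 0.014). In rats 38 to 56 the 2 had 0.46 and 0.33 (adjusted permutation p = 0.095 and 0.27). Without the 2 farthest rats these were 0.09 and 0.12. Of all tested probe sets, 6.2% in the first set and 7.37% in the second had an r at least as high as 1370853_at. The shares were 6.64% and 13.99% for 1389876_at, and 6.75% and 15.79% for Camk2d 1371263_a_at. The cortical and spiny neuron scores opposed each other, with r = -0.85 and -0.74. The points of these correlations share an array, so a dissection that took more cortex, and any other property of a sample, enters both axes; its part was not tested.

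**Figure D5:**
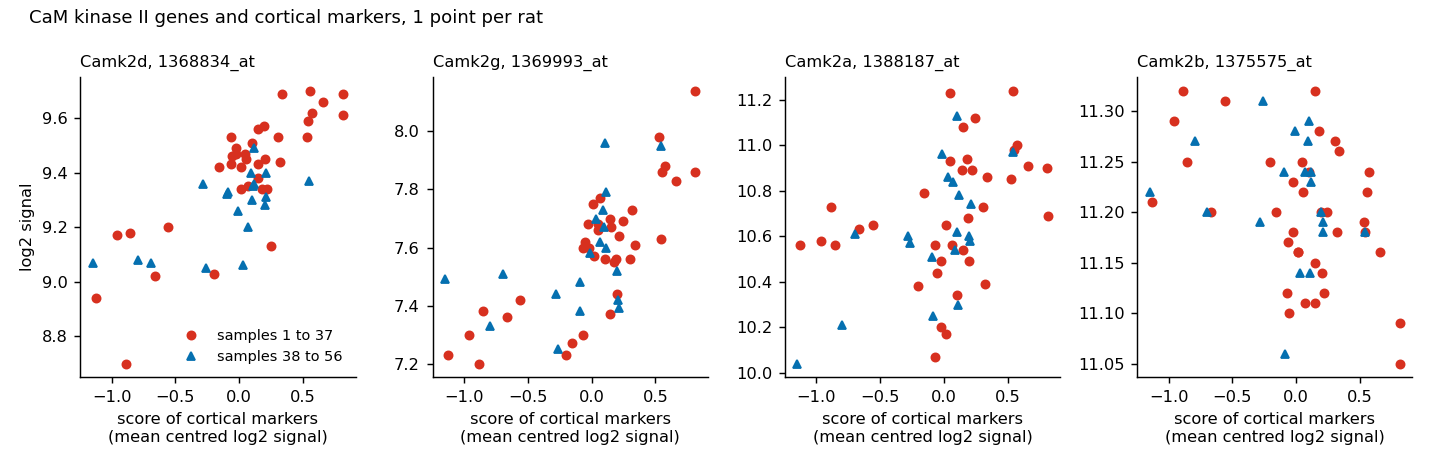
Log2 signal of 1 probe set of each kinase subunit gene against the score of cortical markers (mean of their centred log2 signals), 1 point per rat, circles for samples 1 to 37 and triangles for 38 to 56. In samples 1 to 37, Camk2d and Camk2g rise with the score (r = 0.82 and 0.80), Camk2a less so (0.35), and Camk2b falls (-0.44). In samples 38 to 56, r is 0.67 for Camk2d, 0.49 for Camk2g, 0.64 for Camk2a and -0.19 for Camk2b.

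Among themselves, the genes ran together in part. Of the 10 pairs of brightest probe sets, r was positive in 8 in rats 1 to 37 and in 7 in rats 38 to 56. Both r and rho had an adjusted permutation p under 0.05 in 4 and 2 of them. Camk2a 1388187_at and Camk2n1 1370853_at went together, with r = 0.50 (rho = 0.49, adjusted permutation p = 0.0067 and 0.014) in rats 1 to 37 and r = 0.83 (rho = 0.82, adjusted permutation p = 0.0001 and 0.0004) in rats 38 to 56. Without the 2 farthest rats r was 0.47 and 0.80. Camk2d and Camk2g had r = 0.67 in the first set (rho = 0.58, adjusted permutation p = 0.0001 and 0.0019) and 0.36 in the second (rho = 0.31, adjusted permutation p = 0.22 and 0.30). Camk2b and Camk2g ran opposite ways in the first set, with r = -0.50 (rho = -0.47, adjusted permutation p = 0.0074 and 0.017), and had -0.14 in the second (rho = -0.10, adjusted permutation p = 0.66 and 0.78). Camk2g and Camk2n1 1370853_at had r = 0.54 in the first set (rho = 0.46, adjusted permutation p = 0.0038 and 0.021). In the second they had 0.46 (rho = 0.45, adjusted permutation p = 0.095 and 0.12). Camk2a 1388187_at and Camk2g had r = 0.27 in the first set (rho = 0.29, adjusted permutation p = 0.19 and 0.16). In the second they had 0.54 (rho = 0.55, adjusted permutation p = 0.048 and 0.046). Whether such values differ between the array sets was not tested.

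Probe sets of the same gene ran together in rats 1 to 37. The 2 brightest of Camk2a had r = 0.84 there (rho = 0.79, permutation p = 1e-05 each) and 0.55 in rats 38 to 56 (rho = 0.62, adjusted permutation p = 0.039 and 0.024). Camk2b had 0.66 and 0.43 and Camk2d 0.62 and 0.36. Of the 6 pairs within a gene, 5 had an adjusted permutation p under 0.05 for both r and rho in the first set, and 1 in the second.

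The genes whose signal ran most like these, over the residuals of the 56 arrays after group and array set were removed, differed from gene to gene. For Camk2a they were Sptbn1 (r = 0.70), Grin1 (0.67), the obligatory NMDA receptor subunit, and Ptprs (0.67). For Camk2b they were Cracdl (r = 0.78), Arpp21 (0.75), which encodes a cAMP-regulated phosphoprotein abundant in spiny neurons, and Bcr (0.71). For Camk2d they were Tafa1 (r = 0.86), the neuronal calcium sensor gene Vsnl1 (0.85) and Mfsd4a (0.85), and for Camk2g Dkk3 (0.84), Sult4a1 (0.84) and the adenylyl cyclase gene Adcy2 (0.83). For Camk2n1 1370853_at they were Cplx2 (r = 0.84), which encodes a complexin of the vesicle release machinery, Nsmf (0.79) and Smarca4 (0.78). The stepping probe set 1389876_at had weaker neighbours, Dkk3 (r = 0.58), Ctnnb1 (0.55) and Apbb2 (0.54), and shared none of the 3 with the other Camk2n1 probe set. These r were picked as the highest over all tested probe sets with 1 symbol and carry no test.

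No listed gene of the surrounding pathway passed the test either, in comparisons that called 0.0% to 0.0322% of all tested probe sets. A count of 0 in such lists is thus near the share over all tested probe sets. Of 8 listed calmodulin and small calmodulin-binding proteins 6 were tested, of 9 other calmodulin-dependent kinases 8, of 13 phosphatases 12, of 13 anchors and binding partners 11 and of 16 substrates 13. In limma's test, 0 of these genes passed in either direction in any of the 16 comparisons. For L-dopa in lesioned rats the medians of the 5 lists, in that order, were -0.001, -0.004, -0.027, -0.007 and 0.028, against 0.008 over all tested probe sets, and 1, 1, 3, 1 and 1 genes had an unadjusted p under 0.05, a level that 10.3% of all tested probe sets reached there.

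In each list the gene of smallest p can be named. Among anchors it was Lrrc7, which encodes densin, a postsynaptic protein that binds the alpha subunit. In sham rats of numbers 38 to 56 it had 7.52 to 7.81 with L-dopa (n = 5) and 7.03 to 7.36 with saline (n = 7), without overlap, and a difference of 0.39 ± 0.08 with adjusted p = 0.0934. Among substrates it was Syn1, the vesicle protein synapsin I, at 0.47 ± 0.13 for L-dopa in lesioned rats conditioned with saline (7.77 ± 0.30 against 7.29 ± 0.28, n = 7 each, adjusted p = 0.138), where 7 of 7 rats lay above the saline mean but the ranges overlapped. Ppp1cb, a catalytic subunit of protein phosphatase 1, had a lesion difference of -0.14 ± 0.04 in rats given both drugs (adjusted p = 0.451, 7 of 7 below the sham mean). Gap43, a calmodulin-binding growth cone protein, had 0.21 ± 0.07 for L-dopa in lesioned rats conditioned with saline (adjusted p = 0.218, 7 of 7 rats), and the death-associated kinase gene Dapk1 had 0.13 ± 0.06 there (adjusted p = 0.313, 5 of 7 rats). The Syn1, Gap43 and Dapk1 values come from the comparison in which all 8 cortical markers were positive.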

How the data were processed

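Total RNA of the dorsal striatum of 56 rats was hybridised to 1 array each, per the labels' protocols. The authors' deposited values are log2 signals, made with MAS5 per the submitters' processing notes; its version and scaling target are not given in the sources used here. Unlogged, the trimmed mean of each array (2% off each end) was 150.0 throughout, which shows a common scaling by the authors. Nothing further was normalized, and no detection calls were used.

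Of 31042 probe sets other than controls, 18625 had a mean above 4.99, the 40th percentile, and entered limma 3.58.1 (R 4.3.3): 8 group means plus the array set (numbers 1 to 37 or 38 to 56) as a block, eBayes, and two-sided p-values adjusted by Benjamini-Hochberg over all tested probe sets in each of 16 comparisons. All 56 arrays were fitted together and shared an estimate of the spread. An adjusted p under 0.05 was called. The model was tested on simulated data. Rats are separate animals; sample numbers are not shared between groups, so nothing was paired.

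Symbols came from the array annotation, and 14 of 14 matched the current symbol by gene number. The members and lists were chosen with earlier results of these data known. Named besides the members were, from each of 5 role lists, the gene called or else that of smallest p, and the 3 genes of highest residual correlation with each member's brightest probe set and with the stepping one. A gene in a list is represented by its brightest probe set. Correlations within array sets carry permutation p from 100000 resamples, adjusted over 94. Alternatives were no filter, the 60th percentile, no block, quantile normalization, adding 16 to the unlogged signal, limma's array weights, its trended and robust prior, only the groups compared, the 3′ minus 5′ signal or the cortical score as a covariate, leaving out rat 2, and leaving out each rat of the comparison with 5 rats. Leaving out rat 3, or rats 2, 7 and 27, was added after their values were seen. No probe or protein sequence was used.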

Additional observations from a re-analysis of the deposited data

Results flagged for a closer look

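In 8 of the 112 combinations of probe set and group, 1 rat lay far from the other 6 by Dixon's test for a single extreme value, which chance alone would give in about 1 of 20 groups. For Camk2g 1369993_at, rat 22 (lesioned, no drug) had a log2 signal of 8.14 against 7.23 to 7.56 in the others, and rat 3 (lesioned, both drugs) had 7.20 against 7.56 to 7.73. These rats had cortical marker scores of 0.81 and -0.89, the highest and the lowest of their groups, and the part of that in the values was not tested. For Camk2d 1368834_at, rat 31 (sham, both drugs) had 9.69 against 9.35 to 9.49, and its cortical score of 0.34 was also the highest of its group. Camk2d 1371263_a_at was 4.79 in rat 48 (sham, pramipexole only) against 5.09 to 5.25, and the dim Camk2d 1368833_at was 4.04 in rat 29 (sham, both drugs) against 4.52 to 4.79. Camk2a 1389824_at was 7.73 in rat 42 (sham, L-dopa and saline) against 7.98 to 8.15. Camk2n2, near the bottom of the scale, was 3.03 in rat 22 against 0.20 to 0.99 and 1.87 in rat 47 (sham, pramipexole only) against 0.85 to 1.27. Rat 42 had a cortical score of -0.28, the lowest of its group. Rats 48, 29 and 47 had -0.09, 0.05 and 0.115, neither the highest nor the lowest of their groups.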

How the results depend on the processing

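The count of members called was 0 in each of the 16 comparisons and stayed 0 under every alternative run except the model without the array set as a block. There it was 1 for the lesion over all drug groups and 1 for L-dopa over all rats, both times Camk2n1 1389876_at (0.617 and 0.34, against 0.09 and 0.09 with the block). Both contrasts run across the step by which the genes were chosen, so these counts are a description and no test. Using the 2 and 5 rats of the group on both sides, the difference between array sets was -0.399 for the dim Camk2a 1368935_at and -0.087 and -0.100 for Camk2b 1375575_at and 1398251_a_at, against 0.004, -0.015 and 0.03 over all rats. Leaving out each of the 12 rats in turn for L-dopa in sham rats of numbers 38 to 56 gave 0 calls among members every time, with a smallest adjusted p of 0.512. The fit on the compared groups alone was not run separately where a comparison uses all 8 groups. The number of arrays limits the precision: at 7 against 7, the 95% interval for Camk2a 1388187_at with L-dopa in lesioned rats conditioned with saline runs from 0.09 to 0.67. No paired analysis was possible because no sample number is shared between groups.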

Other observations

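The 4 probe sets that did not pass the filter were also fitted in the model without a filter. The dim Camk2a probe set 1368935_at had a difference of 0.33 ± 0.15 for L-dopa in lesioned rats conditioned with pramipexole (limma's adjusted p = 0.967), the comparison in which the 3 brighter Camk2a probe sets gave -0.01, -0.08 and -0.01. Its 4 lesioned groups ran from 4.53 ± 0.38 with pramipexole alone to 4.86 ± 0.27 with both drugs (n = 7 each), and their ranges overlapped.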
